A study of Homo sapiens with 2 samples.

Results

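The AP-1 FOS and JUN family comprised 8 genes of the 58735 in the deposited count table, taken by their gene names: FOS, FOSB, FOSL1, FOSL2, JUN, JUNB, JUND and JDP2. They were read in 2 RNA-seq libraries of a SUIT-2 derivative of high metastatic potential, a human pancreatic adenocarcinoma line. One library came from untreated cells (label NC, with no word on a vehicle) and the other from cells given dihydroartemisinin (DHA), the active metabolite of the artemisinin antimalarials. The series asked how DHA alters gene expression in pancreatic cancer cells. The sources used here give neither the DHA dose nor the exposure time. With 1 library per group there is no replicate check, so no p-value is given, and the intervals below are 95% intervals that cover counting error only. They treat reads as independent molecules, which PCR copies are not. In a bulk library, a change in the mix of cells and a change in RNA per cell cannot be told apart.

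AP-1 is a family of dimeric transcription factors with a basic leucine zipper (bZIP). FOS proteins do not pair with one another and need a JUN partner, whereas JUN proteins can also pair among themselves, and the composition of the dimer sets its strength at the TPA response element (TRE) and the cyclic AMP response element (CRE). Several of the genes are immediate early genes, transcribed within minutes of growth factor or stress signals through serum response factor and CREB. In carcinoma cells FOSL1 is a well-known product of sustained RAS and ERK signalling.

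Counted reads totalled 15452609 for untreated and 14521101 for DHA-treated cells. All 10 epithelial and pancreatic ductal markers had reads in both libraries. By the 2-fold rule used throughout, 8 of them were called lower in the DHA library and 1 higher, beside 10.3% and 6.72% of the 12064 genes tested. The summed level of the 10 markers, most of it from keratins, was 3704 reads per 1000000 scaled reads (CPM) without DHA and 1487 with it. Some single markers differed far more than this sum. The mucin gene MUC5AC went from 2739 to 43 reads (59.6-fold lower) and the E-cadherin gene CDH1 from 933 to 23 (37.6-fold lower). TSPAN8 went from 927 to 95 (9.20-fold lower) and EPCAM from 1396 to 249 (5.30-fold lower). The higher marker was LCN2, from 505 to 1411 reads (2.95-fold), and SOX9, from 1702 to 1021, was not called. MUC5AC, CDH1 and MUC1 had enough reads for a call only in the untreated library. Of the 7 markers with enough reads in both libraries, 5 were lower and 1 higher. Of 8 retina markers, examined because the protocol text names retina, 5 had 0 reads in both libraries, the arrestin gene SAG among them. The list's summed level was 7.93 and 5.97 CPM, most of it from RPE65 (96 and 74 reads). Fibroblast markers summed to 8.51 and 0.960 CPM (3 and 4 of 7 at 0, COL1A2, COL3A1 and DCN in both libraries) and leukocyte markers to 2.60 and 1.72 CPM (3 and 2 of 6 at 0, PTPRC and CD3E in both). The part of cell composition in the family's values was not tested.

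RefSeq start sites on build GRCh38.p14 were listed for 7 of the 8 genes, all but FOSL1. The windows searched ran from 250 bases before to 50 bases after the start, on both strands. All 7 genes held the 5-base core TGACG of the CRE, which lies within the full CRE TGACGTCA, in at least 1 window, although JDP2 has 3 listed starts and held it at only 1 of them. Among all 27305 genes with a window, 25.0% held the core at the first listed start and 28.4% at any start. The stretches below show that core in capitals in the 6 genes of the FOS and JUN groups. They are printed because the same letters stand before genes that were higher in the DHA library (FOS, FOSB, FOSL2, JUN) and before 2 that did not reach 2-fold (JUNB, JUND).
FOS (chr14:75278751-75278780, plus strand): gtggttgagcccgTGACGtttacactcatt
FOSB (chr19:45467923-45467952, plus strand): agcaaggggcgggTGACGtaagcagggggg
FOSL2 (chr2:28392779-28392808, plus strand): tggagtctggggtTGACGtgagtgaatcca
JUN (chr1:58784154-58784183, minus strand): ggagtctccatggTGACGggcgggcccgcc
JUNB (chr19:12791336-12791365, plus strand): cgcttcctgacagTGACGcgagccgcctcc
JUND (chr19:18281806-18281835, minus strand): gcggccgcccccaTGACGtcaacccacaag

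The core began 64 bases before the start in FOS, 60 in FOSB, 66 in FOSL2, 123 in JUN, 137 in JUNB and 200 in JUND. FOSL2 and JUND each held another copy on the opposite strand, beginning 201 and 86 bases before the start. Only JUND held the complete palindromic CRE, which 1.98% of all windows held. JUN held TGACATCA, a TRE-like site in its own promoter (2.71% of windows), starting 67 bases before its start, and FOSL2 held a TRE, TGACTCA (4.92% of windows), beginning 4 bases after its start. For JUN and FOSL2 the GENCODE gene begins 280 and 410 bases upstream of the RefSeq start, so these stretches lie inside the annotated gene. The pair below shows these sites in capitals.
JUN (chr1:58784096-58784125, minus strand): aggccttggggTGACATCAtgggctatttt
FOSL2 (chr2:28392850-28392879, plus strand): gtgccattgtagTGACTCAtctcgggcaga

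A TATA box, TATAAA read on the gene's strand only, stood 33, 30 and 31 bases before the start of FOS, FOSB and JUNB (7.71% of windows). No CArG box, the serum response factor site, was found in any of the 7 genes' windows (1.29% of windows). Sequence farther upstream was not searched, so the result cannot show whether FOS or the others have such a site beyond the windows. The upstream sequences of FOSB, with the highest ratio in the family, and of JUND, the only member with a ratio below 1, are given in full, with CRE, CRE core and TATA letters in capitals.
FOSB (chr19:45467746-45467994, plus strand): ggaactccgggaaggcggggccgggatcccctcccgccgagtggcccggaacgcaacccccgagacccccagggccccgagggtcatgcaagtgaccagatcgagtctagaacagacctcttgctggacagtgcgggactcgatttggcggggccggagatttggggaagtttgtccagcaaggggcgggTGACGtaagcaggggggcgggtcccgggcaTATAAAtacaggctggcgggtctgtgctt
JUND (chr19:18281623-18281872, minus strand): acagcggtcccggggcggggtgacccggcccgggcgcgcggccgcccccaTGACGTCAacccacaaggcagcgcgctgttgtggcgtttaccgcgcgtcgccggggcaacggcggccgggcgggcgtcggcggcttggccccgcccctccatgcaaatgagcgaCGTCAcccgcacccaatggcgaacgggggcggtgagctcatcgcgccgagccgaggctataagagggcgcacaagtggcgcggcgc

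The FOSB sequence carries 1 core and a TATA box close to the start. The JUND sequence carries the full CRE farther upstream, another core on the opposite strand nearer the start, and no TATAAA. A match of letters is a description of the reference sequence and was not tied to the ratios by any test.

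Levels were compared between genes per length, as CPM per kilobase of exon (RPKM), with exact Poisson intervals. In untreated cells FOSL1 led at 101 RPKM (97.4 to 105), followed by JUND at 43.7 (41.3 to 46.2) and JUN at 27.9 (26.6 to 29.4). JUNB at 11.1 and FOSL2 at 5.67 came next, and FOS at 1.73, JDP2 at 0.417 and FOSB at 0.164 were the lowest. The classical immediate early members FOS and FOSB were thus near the bottom of the family in the untreated culture. In the DHA library FOSL1 stood at 386 RPKM (379 to 393), JUN at 72.8 (70.5 to 75.2) and JUND at 36.1 (33.9 to 38.4). JUNB had 16.2, FOSL2 11.4, FOS 3.92, FOSB 1.31 and JDP2 0.594. All 7 pairs of neighbours in this order were separated beyond counting error in each library. JUN and JUND exchanged places, as did FOSB and JDP2, and the other 4 genes kept theirs. JUN already exceeded JUND in the untreated library when reads were not divided by gene length (1523 against 1253 reads). Of the 12064 genes tested (50 reads or more in either library), FOSL1 lay at percentile 97.3 of level without DHA and 99.6 with it.

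**Figure D1:**
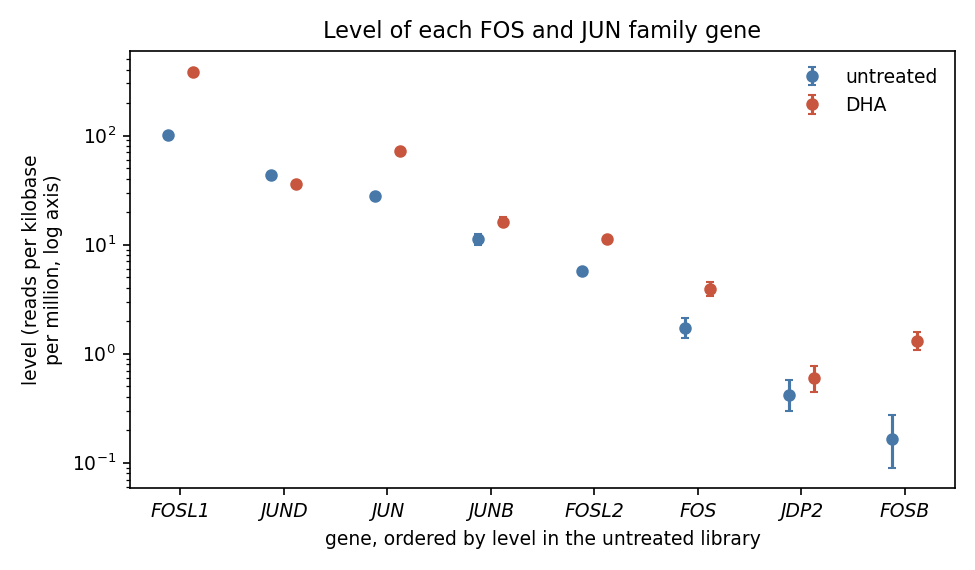
Level of each family gene in RPKM (log axis) in the untreated (blue) and DHA (red) library, with exact 95% Poisson intervals as bars, some smaller than the points. FOSL1 is highest in both libraries (101 and 386), and JUN and JUND exchange the second place.

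Ratios between the libraries were computed on counts plus 0.5 reads, scaled by TMM (trimmed mean of M values). A call of higher or lower required 50 reads in either library, a difference of 2-fold or more and an interval excluding 1. By this rule 5 of the 8 family genes were higher in the DHA library and 0 were lower. Over all 12064 genes tested, 6.72% were higher and 10.3% lower. The 5 were all 4 FOS genes and JUN, and the 3 not called were JUNB, JUND and JDP2. All 8 genes reached the read minimum, but FOSB and JDP2 did so only through the DHA library. With 50 reads required in each library, 4 of 6 members were higher, against 5.8% of 11057 genes, and with a mean of 50 reads required, 5 of 7 members, against 6.35% of 11624 genes.

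FOSL1, which encodes Fra-1, a FOS protein without the strong activation domain of FOS itself, is on chromosome 11 (ENSG00000175592, 65892049 to 65900573, minus strand, GRCh38). Reads went from 2935 without to 10617 with DHA, and the scaled ratio was 3.82 (3.67 to 3.98). It was the family's most abundant transcript in both libraries, and only FOSB had a larger ratio. FOSL2, on chromosome 2 (ENSG00000075426, 28392448 to 28417312, plus strand), encodes the related Fra-2. It had 625 and 1185 reads, a ratio of 2.002 (1.82 to 2.21) that sits on the 2-fold line. FOSL2 lost its call with DESeq2 size factors (log2 ratio 0.96), with upper-quartile scaling (0.94) and with a trend on gene length removed (0.95), so 4 members were then called.

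FOS, the immediate early gene that names the family, is on chromosome 14 (ENSG00000170345, 75278774 to 75282230, plus strand). Its 86 reads in untreated and 185 in DHA-treated cells gave a ratio of 2.26 (1.75 to 2.97). FOSB, on chromosome 19 (ENSG00000125740, 45467995 to 45475179, plus strand), has a long form that activates transcription and a splice form lacking part of the activation domain, which gene-level counts cannot separate. It had 14 and 106 reads, a 7.76-fold higher level in the DHA library (4.56 to 15.1). The FOSB ratio was the highest of the family and its interval the widest. FOS and FOSB were minor transcripts even so, at 0.742% and 0.248% of the family's summed RPKM in the DHA library.

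JUN, which encodes c-Jun, an activator and a substrate of the JUN N-terminal kinases, is an intronless gene on chromosome 1 (ENSG00000177606, 58780788 to 58784327, minus strand). Its 1523 reads in untreated and 3759 in DHA-treated cells gave a ratio of 2.61 (2.46 to 2.77). JUNB, a weaker activator that can counter JUN, lies on chromosome 19 (ENSG00000171223, 12791496 to 12793315, plus strand). It had 312 and 430 reads, a ratio of 1.45 (1.26 to 1.69) that did not reach 2-fold. HOOK2, on the opposite strand, shares 14.2% of the exon length of JUNB and had 156 and 63 reads (2.33-fold lower). The sources used here do not say whether strand was used in counting, so reads of JUNB and HOOK2 in the shared stretch cannot be told apart.

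JUND, the JUN gene typically transcribed in resting cells, is also on chromosome 19 (ENSG00000130522, 18279760 to 18281622, minus strand). Its 1253 reads in untreated and 980 in DHA-treated cells gave a ratio of 0.826 (0.759 to 0.899). It was the only member with a ratio below 1, under TMM, total-read, DESeq2 and upper-quartile scaling alike. The difference is small, and the log2 ratio of -0.28 became -0.06 with the length trend removed and -0.02 with a trend on length and GC content removed. JDP2 encodes JUN dimerization protein 2, which pairs with JUN proteins and represses AP-1 sites, and lies on chromosome 14 (ENSG00000140044, 75427716 to 75474111, plus strand). It had 40 and 54 reads, a ratio of 1.42 whose interval (0.930 to 2.203) includes 1, so no difference was detectable at this depth.

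**Figure D2:**
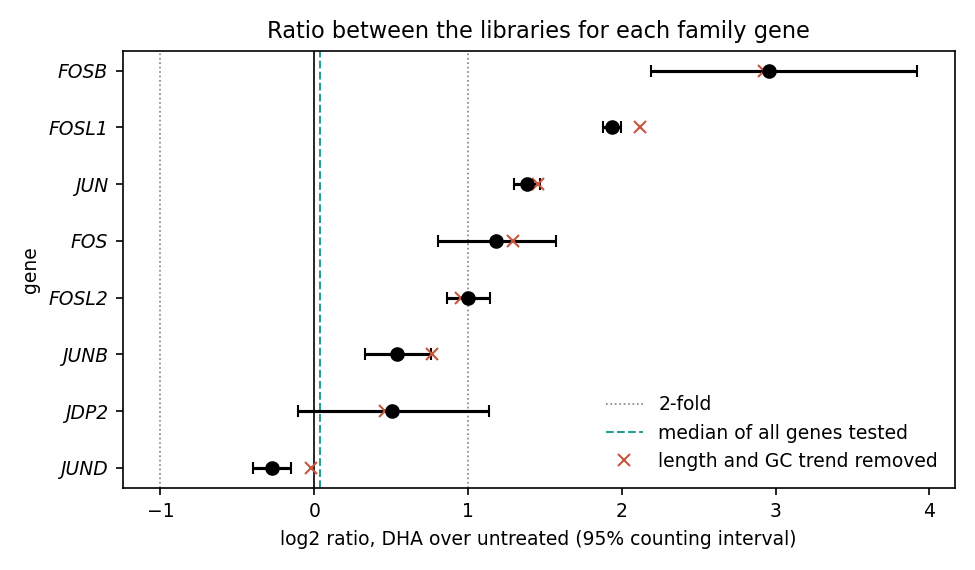
Log2 ratio of the DHA over the untreated library for each family gene (black points, bars are 95% counting intervals), with the value after removal of a trend on length and GC content (red crosses), the 2-fold lines (dotted) and the median of all genes tested (green dashes, 0.04). FOSB (2.96), FOSL1 (1.93), JUN (1.38) and FOS (1.18) lie past the upper 2-fold line, FOSL2 (1.00) on it, and JUND (-0.28) lies below 0.

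At a 3-fold threshold, FOSB and FOSL1 were the 2 members called, against 1.82% of all genes tested. FOSB, with 14 and 106 reads, passed the read minimum only through the DHA library, where it was higher. The 3-fold count was not repeated with 50 reads required in each library. The intervals of 6 members lay wholly above 1 and that of 1, JUND, wholly below, against 39.8% and 35.5% of all genes tested. The family's median log2 ratio was 1.09 and that of all genes tested 0.04. The deposited table also labels genes by transcription factor family. Its bZIP class holds 40 other genes, of which 27 reached the read minimum, with 6 higher and 2 lower and a median log2 ratio of 0.42 (5 and 1 of 24 with 50 reads in each library). The 6 were ATF3, MAFF, DDIT3, MAFK, MAFG and ATF4, and the 2 were CREB3L3 and TEF. Over all 932 tested genes with a transcription factor label, 8.48% were higher and 7.51% lower, with a median of 0.22. These shares describe the libraries, and the difference between the family and other classes was not tested.

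**Figure D3:**
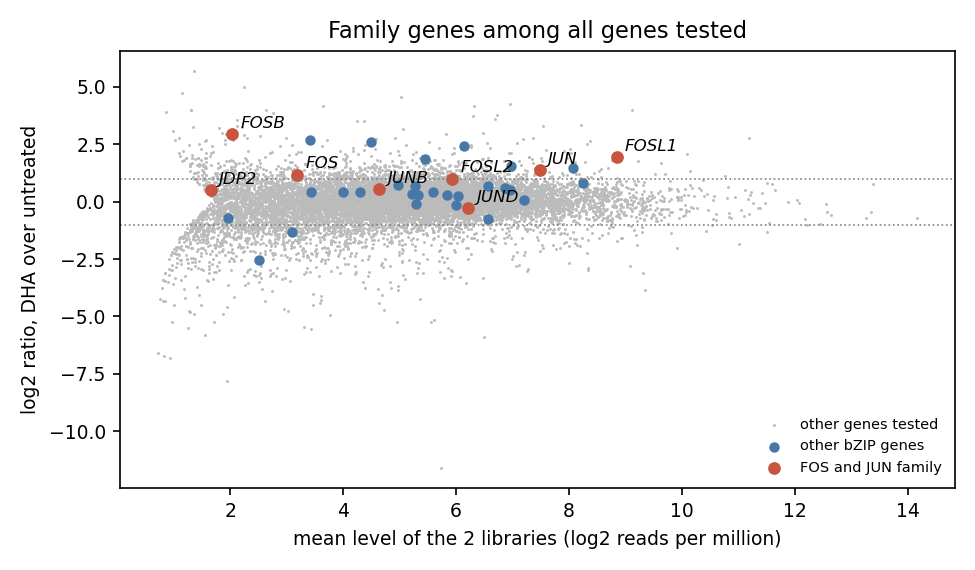
Log2 ratio of the DHA over the untreated library against mean level (log2 CPM) for all 12064 genes tested (grey), the other bZIP genes (blue) and the family (red, named). FOSL1 combines a high level with a log2 ratio of 1.93, whereas FOSB (2.96) lies at a low level where grey points scatter widely.

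The balance between members was examined for all 28 pairs by the odds ratio of their reads, which does not depend on the scaling between libraries. A trend of the ratios with gene length does enter it where the members differ in length. The interval excluded 1 for 23 pairs, and for 22 once the length trend, or that of length and GC content together, was removed. FOSB and FOSL1 differed from each of the other 7 genes in all 3 forms. The same count was not made for pairs of other genes, so the number of pairs apart cannot be read as particular to the family. For single genes tested, the interval of the ratio lay wholly above 1 in 39.8% and wholly below 1 in 35.5%. JUND had the lowest ratio of the family, so all pairs with it point the same way, and they share its reads. Every other member gained on JUND, from 1.73-fold for JDP2 (1.12 to 2.69) and 1.76-fold for JUNB (1.48 to 2.09) to 9.67-fold for FOSB (5.48 to 18.4). For JDP2 this was lost with the length trend removed (1.45-fold, 0.938 to 2.26) and after removing both trends (1.40-fold, 0.904 to 2.18), whereas the other 6 kept an interval above 1. The JUN to JUND ratio, per length, went from 0.640 to 2.02, an odds ratio of 3.16 (2.84 to 3.501). FOSL1 gained 4.62-fold on JUND (4.21 to 5.08), 2.62-fold on JUNB (2.25 to 3.06) and 1.47-fold on JUN (1.36 to 1.58). Within the JUN genes, JUN gained 1.79-fold on JUNB (1.52 to 2.10). The 5 pairs whose interval included 1 were FOS with FOSL2 (0.857 to 1.51), FOS with JUN (0.666 to 1.15), FOS with JDP2 (0.952 to 2.65), FOSL2 with JDP2 (0.898 to 2.18) and JUNB with JDP2 (0.643 to 1.61). FOS and JDP2 had the fewest reads besides FOSB, and each had 4 of 7 pairs apart. With the length trend removed, FOSL2 with JUNB also included 1 (0.955 to 1.37), and FOS with JDP2 no longer did (1.04 to 2.90).

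**Figure D4:**
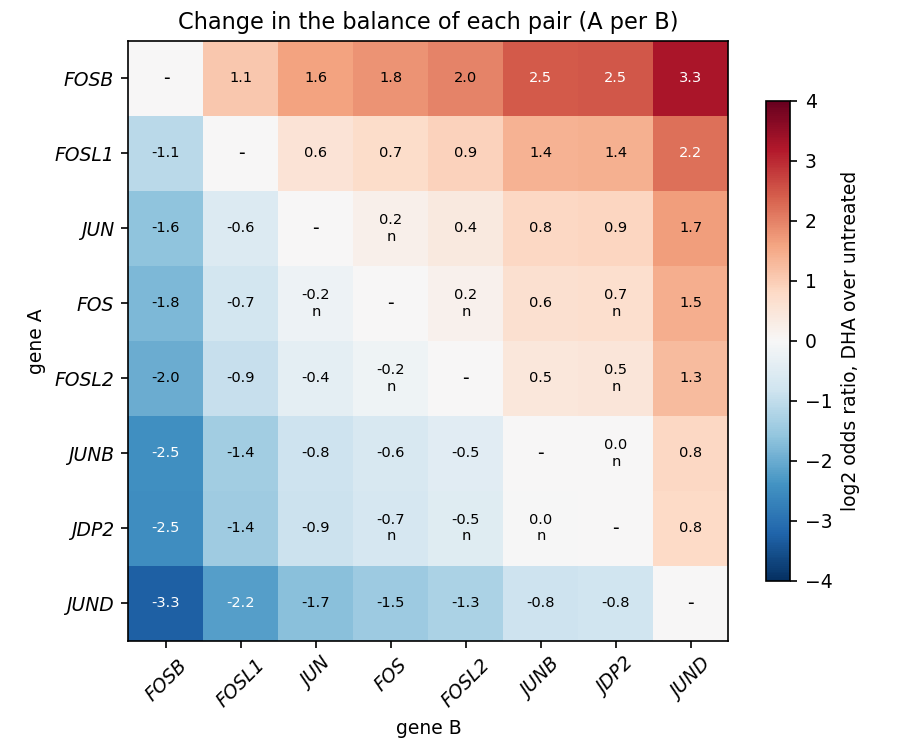
Log2 odds ratio of the reads of gene A (rows) over gene B (columns) between the DHA and untreated libraries, red where A gained on B; n marks the 5 pairs whose 95% counting interval includes 0 on this scale. The JUND column is red throughout (0.8 to 3.3), and the FOSB row has the largest values. Both follow from the lowest ratio of the family in JUND and the highest in FOSB.

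Summed over the 4 FOS genes, reads went from 3660 to 12093, 3.49-fold higher after scaling (3.36 to 3.62). FOSL1 alone supplied most of these, and FOS, FOSB and FOSL2 together had 725 and 1476 reads (2.15-fold, 1.97 to 2.35). Summed over the 3 JUN genes, reads went from 3088 to 5169, 1.77-fold higher (1.69 to 1.85). Per length, FOS genes summed to 109 RPKM without DHA and 403 with it, and JUN genes to 82.8 and 125. The FOS to JUN ratio of summed RPKM was thus 1.31 without DHA and 3.22 with it. FOSL1 made up 52.7% of the family's RPKM in untreated and 73.1% in DHA-treated cells. The share of JUN was 14.6% and 13.8%, and that of JUND 22.8% and 6.83%. These are transcript levels, and protein and dimers were not measured.

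The genes around the family were taken from 5 lists. The bZIP partners, the ATF, BATF and MAF proteins that can pair with FOS or JUN, had 4 of 6 tested members higher and 0 lower (median log2 ratio 1.71), beside 6.72% higher and 10.3% lower among all genes tested. ATF3, a stress-induced partner of JUN, had 44 and 270 reads (6.42-fold, 4.70 to 9.13) and passed the read minimum only through the DHA library. With 50 reads required in each library, 3 of 5 partners were higher, against 5.8% of all genes. The small MAF genes MAFF (6.04-fold), MAFK (3.60-fold) and MAFG (2.97-fold) were the other 3. ATF2 and ATF7, constitutive partners of JUN that bind the CRE, had log2 ratios of 0.42 and 0.74. BATF had 0 reads in both libraries, which allows up to 3 reads in each, and BATF2, BATF3 and MAF were among those under the read minimum.

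Among 16 kinases that act on AP-1 proteins, 0 were higher and 2 (12.5%) were lower, with a median of 0.29. These counts are near the 6.72% and 10.3% of all genes tested. MAP3K1, an activator of the JUN kinase cascade, had 1350 and 486 reads (2.63-fold lower, 2.37 to 2.92). MAPK10, the neuronal JUN kinase gene, had 67 and 15 reads (4.12-fold lower, 2.39 to 7.97), passing the minimum only through the untreated library. MAP2K1, which encodes the ERK kinase MEK1, and RPS6KA5, a nuclear kinase of CREB, had log2 ratios of 0.93 and 0.89, short of 2-fold. The abundant JUN kinase genes MAPK8 and MAPK9 had 0.57 and -0.54.

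Of 7 genes for SRF, its cofactors and CREB1, 1 (14.3%) was higher and 0 lower (median 0.77), beside 6.72% and 10.3% of all genes tested. SRF, which drives the FOS promoter together with ternary complex factors, had 505 and 1228 reads (2.57-fold, 2.31 to 2.85). The ternary complex factor genes ELK4 and ELK1 and the cofactor gene MRTFA had log2 ratios of 0.92, 0.77 and 0.85. The cofactor gene MRTFB went the other way, from 806 to 479 reads (-0.67). Of 12 tested genes of FOS and JUN mRNA or protein turnover, 0 were called in either direction (median 0.15), beside the same shares. In lists this short, the counts of both lists are near those shares. ZFP36, which encodes the decay factor tristetraprolin and is itself an immediate early gene, had 185 and 336 reads and a log2 ratio of 0.94. It passed 2-fold with the length trend removed (1.13). FBXW7, a ubiquitin ligase subunit for JUN, had 0.64, HNRNPD -0.67 and ZFP36L1 -0.54.

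Of 16 tested genes commonly listed as AP-1 targets, 8 (50%) were higher and 1 (6.25%) was lower, with a median of 1.04, beside 6.72% and 10.3% of all genes tested. All 16 had 50 reads or more in each library. The largest ratios belonged to the heme oxygenase gene HMOX1 (13.3-fold, 11.4 to 15.7), the urokinase receptor gene PLAUR (12.01-fold, 10.5 to 13.8), the collagenase gene MMP1 (6.20-fold, 5.86 to 6.57) and the EGF receptor ligand gene HBEGF (4.75-fold, 3.87 to 5.92). DUSP1, VEGFA and LIF were also among the higher ones, named after their values were seen. PLAU, which encodes urokinase, the ligand of the PLAUR product, was the lower one, with 9144 and 3395 reads (log2 ratio -1.35). CCND1, CD44 and TIMP1, all abundant, had 0.73, -0.28 and 0.15. The remaining 7 listed targets were under the read minimum, among them MMP3, MMP9, MMP10 and IL6 with at most 3 reads. HMOX1 and VEGFA also answer to factors other than AP-1, and the list was written with earlier results of these data known.

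**Figure D5:**
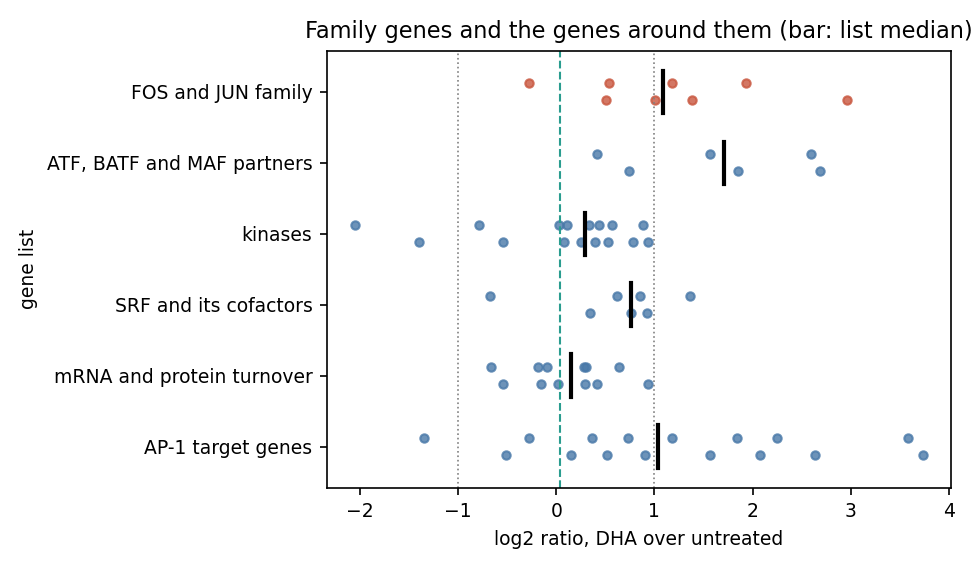
Log2 ratio of the DHA over the untreated library for each tested gene of the family (red) and of 5 lists around it (blue), with list medians (black bars), the 2-fold lines (dotted) and the median of all genes tested (green dashes). The partners (median 1.71) and targets (1.04) reach far to the right, and the medians of kinases (0.29) and turnover genes (0.15) lie nearer 0, although 2 kinase genes, MAPK10 (-2.04) and MAP3K1 (-1.39), lie past the lower 2-fold line.

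The TRE, the preferred site of FOS and JUN dimers, was also searched at the first listed start of all genes with a RefSeq start and enough reads (9206 genes). Of 259 genes with TGACTCA in the window, 41 (15.8%) were higher and 26 (10.04%) lower, against 6.28% and 9.27% of all 9206. The looser form TGANTCA, with any base at N, had smaller shares, 12.8% higher and 10.5% lower of 390 genes. The TRE-like TGACATCA had raised shares in both directions, 12% and 14.4% of 125 genes. The shares by motif were not recounted with 50 reads required in each library. Of 312 genes with the full CRE, 7.05% were higher and 3.85% lower. Windows with TATAAA also had raised shares in both directions, 12.4% and 12.8% of 290 genes. The shares are descriptions of the reference letters beside the ratios, and binding was not measured.

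The members lie on 5 chromosomes, and their neighbours had varied ratios. The nearest tested protein-coding genes on either side, 14 in all when members were left out, had a median log2 ratio of 0.11, with 2 (14.3%) higher and 1 lower, beside 6.72% and 10.3% of all genes tested. CCDC85B, which ends 0.414 kb from FOSL1, was 2.21-fold higher (2272 and 4757 reads), and FLVCR2, 105 kb beyond JDP2, was 3.23-fold higher (18 and 56 reads) but reached the read minimum only through the DHA library. FOS and JDP2 lie 145 kb apart on chromosome 14 with ratios of 2.26 and 1.42. GC content of the longest transcript ran from 51.5% in JDP2 and 52.6% in FOS to 64.9% in JUNB and 69.7% in JUND, and the 2 JUN genes that were not called thus had the highest values of the family. JUND lay at percentile 99.8 of GC content among the genes tested. Over all genes tested the median log2 ratio was 0.06 in the 2413 genes of lowest GC content and 0.02 in the 2413 of highest. The share called was larger at higher GC content, from 4.43% higher and 7.09% lower in the former to 8.95% and 13.7% in the latter. Of the members, 4 lay among those 2413 genes of highest GC content and 4 in the 2412 next below, where 7.96% were higher and 11.4% lower. Across the 8 members the rank correlation of GC content with the log2 ratio was -0.07, a description of genes that share 2 libraries.

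The genes closest to FOSB, the member whose ratio had the highest lower bound, by distance in log2 RPKM over these 2 libraries, were ITGB3 (12 and 75 reads), ASNS (12 and 74) and QRICH2 (17 and 122), at distances of 0.20, 0.22 and 0.27. Part of the exon length of ITGB3 (51.6%) and ASNS (44.6%) is shared with another gene on the same strand, which makes their counts uncertain. None of the 8 family genes shares exons with a gene on its own strand.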

How the data were processed

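RNA-seq was done on 1 untreated and 1 DHA-treated library, grouped by treatment label. The deposited file holds raw read counts per gene, with no normalization by the authors, and gene lengths in bases. The Illumina libraries were built from 1 µg of Trizol-extracted RNA, per the labels' protocols. That text names retina, and mm8, a mouse build, stands in the submitters' processing notes, whereas all 58735 gene rows matched GENCODE release 29 on human GRCh38 in identifier, name, coordinates and exon length. The sources used here give no aligner, counting tool or strand use.

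Counts were scaled by TMM in edgeR 4.0.16 (R 4.3.3; factors 0.996 and 1.004). Ratio intervals were converted from exact Clopper-Pearson bounds on the fraction of each gene's reads in the DHA library, and pair odds ratios from the exact conditional interval (scipy 1.17.1). A count of 0 was taken to allow up to 3 reads. The method was run on simulated counts with Poisson error only. That run held no differences between cultures and no PCR copies, so it cannot show how the intervals cover either. Alternatives were other scalings (total reads, DESeq2 1.42.0, upper quartile), read minimums, pseudocounts, folds and intervals, protein-coding genes alone, and removal of a length trend (lowess, statsmodels 0.14.6). Removal of a length and GC trend, a mean read minimum, 50 reads in each library for lists and neighbours, removal of either trend from pair odds ratios and leaving out genes sharing over 50% of exon length were chosen after seeing the data. All 109 list entries matched by symbol. Named were the 8 members, up to 4 genes per list with the largest absolute log2 ratio, and the 3 protein-coding genes nearest the member with the highest lower bound. Others were chosen after their values were seen. A few listed genes count in their lists but are not reported here by name. The members and lists were chosen with earlier results of these data known.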

Additional observations from a re-analysis of the deposited data

How the results depend on the processing

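No paired analysis was possible because each group has 1 library, and leaving out a library leaves nothing to compare. The sign of the log2 ratio of all 8 members held under every alternative that gave a value, and JUND came nearest to 0. With either trend removed, the counting interval of JUND included 0, and that of JDP2 did so as reported. For these genes the sign is thus not separated from counting error in those settings. FOSL2 fell short of 2-fold when scaled by DESeq2 (log2 ratio 0.96) or by the upper quartile (0.94), or with the length trend (0.95) or the length and GC trend removed (0.96), leaving 4 members higher. With upper-quartile scaling, the length trend removed and the length and GC trend removed, in that order, FOSL1 had 1.87, 2.15 and 2.12, the summed FOS genes 1.74, 1.99 and 1.97, the summed JUN genes 0.76, 0.93 and 0.94, and all 8 members summed 1.36, 1.59 and 1.58. With the length trend and the length and GC trend removed, JUNB had 0.76 and 0.76 and JUND -0.061 and -0.020. The moves under the trends follow gene length, since JUNB, JUND and FOSL1 are the shortest members (1820, 1863 and 1887 bases).

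A minimum of 500 reads left FOS, FOSB, JUNB and JDP2 untested and 3 members higher, with 431 of all genes higher and 379 lower. A 3-fold threshold left 2 members higher (FOSL1, and FOSB, tested only through the DHA library), with 219 and 556 of all genes. Over all genes, 1297 were higher and 2126 lower with a minimum of 10 reads, 1432 and 2386 with a minimum of 1 read, and 2284 and 2320 at 1.5-fold, against 811 and 1245 as reported. The number of genes tested changes with the read minimum, so counts under different minimums are not shares of the same total. Leaving aside the read minimums, which cannot change a ratio, 45 of 56 values of members under the other scalings, pseudocounts and trends stayed within the counting interval and on the same side of the call rule, as did 190 of 196 values of genes named from the lists. With either trend removed, 22 of 28 pairs excluded 1 against 23 as reported, with 2 lost (FOSL2 with JUNB, JUND with JDP2) and 1 gained (FOS with JDP2). Without division by length, 4 of 8 members kept their rank in the untreated and 5 of 8 in the DHA library. Depth limits JDP2 and FOSB most, with 40 and 14 reads in the untreated library, and differences between cultures were not measured.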
